A study of Mus musculus with 8 samples.

Results

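The BCL2 family decides whether a cell keeps its mitochondrial outer membrane intact or opens it and dies by apoptosis. Its 10 members described here were taken by gene symbol, 10 of 38924 lines of the deposited table, by a rule that uses no measured value, although earlier results of these data were known when they were chosen. They comprise 3 anti-apoptotic genes (Bcl2, Bcl2l1, which encodes BCL-XL, and Mcl1), 2 effectors that form pores in the membrane (Bax and Bak1) and 5 BH3-only genes that trigger the effectors or block the anti-apoptotic proteins (Bcl2l11, which encodes BIM, Bbc3, which encodes PUMA, Pmaip1, which encodes NOXA, Bid and Bik). All 10 were in the file, 8 reached 1 adjusted TPM in 2 or more libraries and were tested, and Bcl2 and Bik did not.

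RNA was sequenced from mouse inner cell mass (ICM, the inner cells of the blastocyst) in 3 libraries, from the ICM of blastocysts held in diapause, a reversible arrest before implantation, in 3 libraries, and from epiblast of post-implantation embryos in 2 libraries. ICM came from blastocysts of day 3.5 and epiblast from embryos of day 6.5. Diapause was brought on by tamoxifen injected into the peritoneum together with 0.5 mg of Depo Provera under the skin on day 3.5, and those blastocysts were collected 5 days later. All embryos were of C57BL/6 females, each library was a pool of about 50 embryos, and the labels list no genetic alteration. Blastocysts of both kinds were flushed from superovulated females and lost their trophectoderm to rabbit antibody and guinea pig complement, and the RNA of all groups was amplified before library preparation. Hormone treatment, added days in the uterus and arrest differ together between ICM and diapaused ICM and cannot be told apart. Embryo stage and implantation differ together between epiblast and both ICM groups, and the antibody and complement step is given for blastocysts only. Diapaused ICM and epiblast also differ in hormone treatment and arrest. These cannot be told apart either.

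In healthy cells the anti-apoptotic proteins hold the BH3-only proteins and the effectors in complexes, and a surplus of BH3-only protein frees BAX and BAK to open the membrane and release cytochrome c. MCL1 is a short-lived protein that is held by NOXA, BIM, PUMA and BID, and mouse embryos without Mcl1 die around the time of implantation. Cells of the early epiblast are known to die readily after DNA damage or in competition with their neighbours.

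Levels are given in the deposited unit, adjusted TPM, which by its name is a level per transcript length. Differences are on the scale log2(adjusted TPM + 1) ± SE, which makes changes of lowly expressed genes look smaller, and adjusted p-values are from limma over 17698 tested genes with a threshold of 0.05. The read depth is unknown. The columns summed to 720674 to 1179026, and 14634 to 15130 genes per library were at 1 or more. Libraries of a group correlated at 0.944 to 0.968 (Pearson, log scale, all tested genes) and libraries of different groups at 0.818 to 0.919. In pooled embryos, fewer cells of a type and less RNA per cell cannot be told apart. The 3 comparisons share libraries in pairs, so they are not independent of each other.

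Marker genes of other cell types moved with the groups. The summed level of 15 primitive endoderm markers was 602 to 752 in ICM, 1853 to 2203 in diapaused ICM and 74.7 to 77.1 in epiblast, and 11 of the 15 rose in diapaused ICM against ICM while 1 fell. Over all tested genes, 7.52% rose and 5.81% fell in that comparison. The 10 visceral endoderm markers summed to 35.9 to 57.5, 612 to 627 and 317 to 429, most of it Rhox5 (means of 26.3, 558 and 319). In diapaused ICM against ICM 2 of 6 tested rose (Rhox5 and Apoe) and Hnf4a fell, while Ttr and Apob stayed at 0.196 or less in both groups. The 11 trophectoderm markers summed to 41.1 to 59.7, 54.2 to 185 and 59.5 to 67.4. The 14 epiblast and pluripotency markers summed to 641 to 988, 512 to 615 and 557 to 918. This sum hides opposite changes: in epiblast against ICM 4 rose, among them Fgf5 and Otx2, and 8 fell, among them Tfcp2l1 and Klf4. In diapaused ICM against ICM 0 rose and 3 fell. The 12 blood and immune markers in the file summed to 5.98 to 11.2, 49.5 to 136 and 6.54 to 39.7, although Tyrobp, Lyz2 and Csf1r of that list stayed under 0.1 in all libraries. Only 3 of the 12 were tested. Cd68 and Laptm5, with means of 45.2 and 31.8 in diapaused ICM, rose there over ICM. Itgam was at 37.3 in epiblast replicate 1 and at 2.09 in replicate 2. The part of other cell types in the differences below was not tested.

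The promoters of Bak1, Bcl2l11 and Mcl1, the 3 members with the largest rises in epiblast over ICM on the scale log2(adjusted TPM + 1), are shown first, because the results turn on these genes. They are RefSeq sequences of build GRCm38.p6, 250 bases before and 50 after the annotated start, 5′ to 3′ along the gene. Capitals mark matches to any of 8 motifs searched on both strands, and a match on the opposite strand appears as its reverse complement.
Bcl2l11 (chr2:128125788-128126087, + strand): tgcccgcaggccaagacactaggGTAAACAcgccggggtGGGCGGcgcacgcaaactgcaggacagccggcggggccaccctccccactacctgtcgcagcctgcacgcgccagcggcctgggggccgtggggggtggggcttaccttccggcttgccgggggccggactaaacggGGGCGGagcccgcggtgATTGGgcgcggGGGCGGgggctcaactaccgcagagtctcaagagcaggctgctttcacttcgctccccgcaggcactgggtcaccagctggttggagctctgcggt
Mcl1 (chr3:95658471-95658770, + strand): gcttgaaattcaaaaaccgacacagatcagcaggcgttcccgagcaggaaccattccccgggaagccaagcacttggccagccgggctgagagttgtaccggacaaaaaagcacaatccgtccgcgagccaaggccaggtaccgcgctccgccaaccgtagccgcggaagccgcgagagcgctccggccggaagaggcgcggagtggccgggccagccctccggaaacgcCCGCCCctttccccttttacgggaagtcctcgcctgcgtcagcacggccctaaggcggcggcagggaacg
Bak1 (chr17:27028578-27028877, - strand): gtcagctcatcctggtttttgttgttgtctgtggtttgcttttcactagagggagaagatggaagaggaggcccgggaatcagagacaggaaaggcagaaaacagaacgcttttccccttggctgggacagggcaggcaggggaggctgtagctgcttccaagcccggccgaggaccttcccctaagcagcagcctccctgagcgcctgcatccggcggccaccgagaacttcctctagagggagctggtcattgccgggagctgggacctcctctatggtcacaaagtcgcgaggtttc
The Bcl2l11 window held the FoxO motif GTAAACA at -227 from the start, the GC box GGGCGG bound by SP and KLF factors at -211, -74 and -46, and the NF-Y motif CCAAT at -57 on the opposite strand. It was 71.0% G and C. Mcl1, at 65.7%, held a single GC box at -20 on the opposite strand, and Bak1, at 58.3%, held no match. Among 32851 promoters of this length, 3.65% held the FoxO motif, 35.7% the GC box and 37.4% CCAAT. The other motifs searched were TTCNNNGAA (STAT, in 8.30% of promoters), TGACGTCA (cAMP response element, 1.79%), TGATGNAA (ATF4 and CHOP, 3.97%), GCGTGGGCG (EGR, 0.612%) and TATAAA (bound by TBP, 13.6%), and none of these 5 had a match in the 3 windows. Of the 10 members, 8 had an entry in the promoter table, with 13 entries in all. A further Bcl2l11 entry at chr2:128127325-128127624, 74.0% G and C, held 3 GC boxes and 2 CCAAT matches, and Bcl2, Bid, Bax and all 3 Bbc3 entries held GC boxes. The Bbc3 entries also held a FoxO match at -167 and, in a different entry, a CCAAT match at -100, both on the opposite strand.

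**Figure D1:**
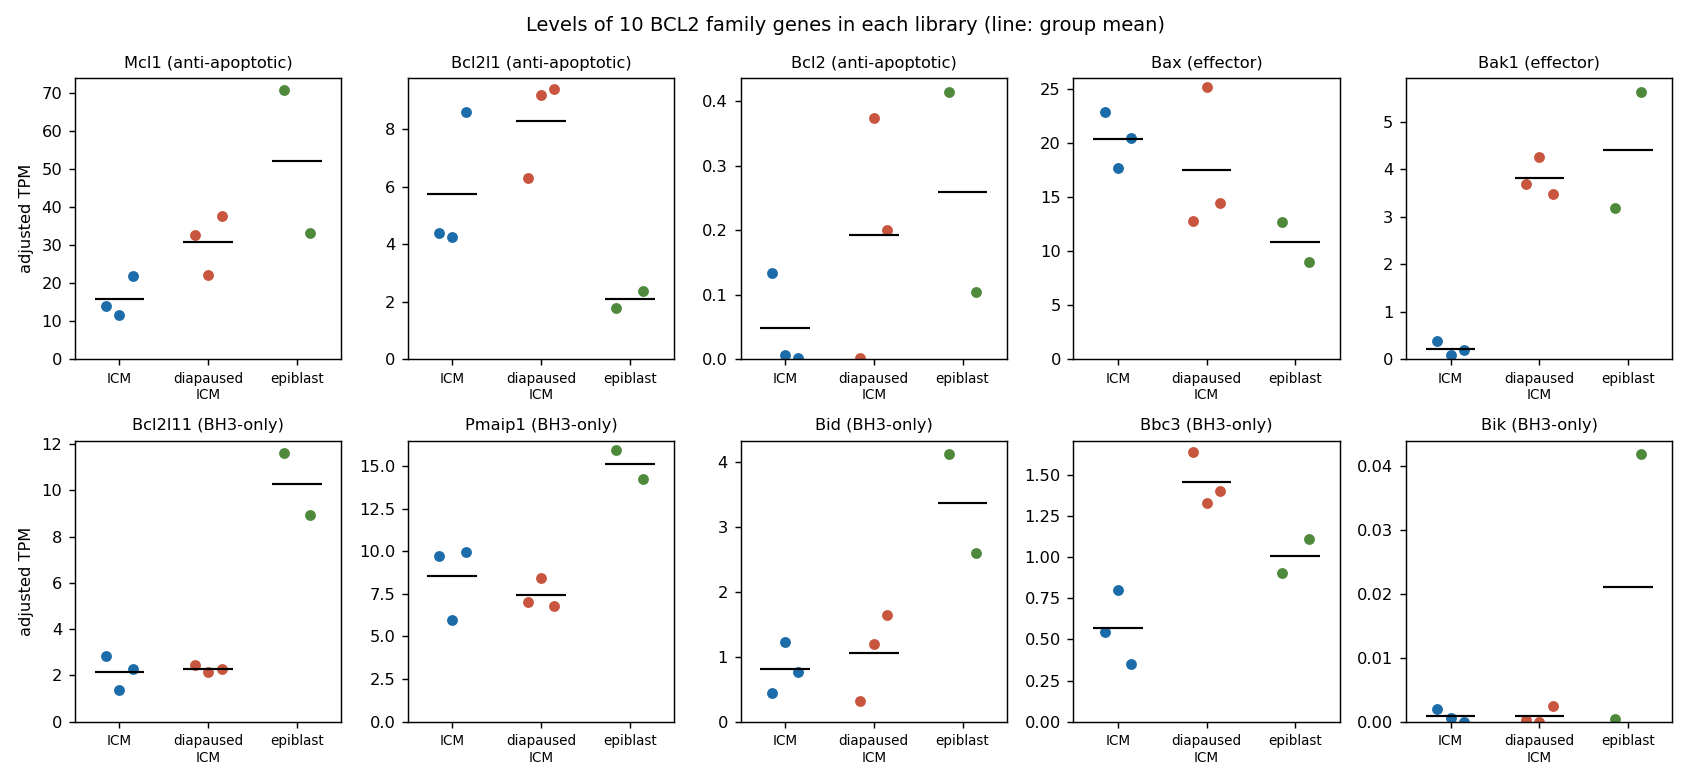
Level of each of the 10 members (y axis, adjusted TPM, a scale per panel) in every library of ICM, diapaused ICM and epiblast (x axis), with points for libraries and lines for group means. Bak1 stays under 0.4 in ICM and at 3 or more elsewhere, Bcl2l11 and Pmaip1 are highest in epiblast, and Bcl2l1 is lowest there.

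Mcl1 was the most abundant anti-apoptotic transcript in every library. Its level was 14.0, 11.6 and 21.8 adjusted TPM in ICM libraries 1, 2 and 3, 32.5, 22.1 and 37.5 in diapaused ICM and 70.8 and 33.1 in epiblast. The lowest diapaused library was just above the highest ICM library, and the epiblast libraries lay more than 30 adjusted TPM apart, 1 of them within the diapaused range. Mcl1 rose in epiblast over ICM by 1.60 ± 0.40 (limma, adjusted p = 0.0166), with group means of 52.0 ± 26.7 (SD, n = 2) and 15.8 ± 5.33 (SD, n = 3). The call was lost in 3 of 18 alternatives: with no filter, with a minimum fold of 1.5 and without epiblast replicate 1, where the difference was 1.06. In diapaused ICM, with a mean of 30.7 ± 7.87 (SD, n = 3), the difference from ICM of 0.93 ± 0.35 did not pass (limma, adjusted p = 0.128, 95% interval 0.13 to 1.73), and neither did that from epiblast (-0.68 ± 0.40, adjusted p = 0.211).

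Bcl2l1 encodes BCL-XL, the longer-lived anti-apoptotic protein that restrains both BAX and BAK. It was at 4.40, 4.23 and 8.58 adjusted TPM in ICM, 6.30, 9.19 and 9.39 in diapaused ICM and 1.76 and 2.38 in epiblast. Both epiblast libraries lay below all others, and ICM replicate 3 fell within the diapaused range. Bcl2l1 fell in epiblast against ICM by 1.08 ± 0.32 (limma, adjusted p = 0.0318) and was higher in diapaused ICM than in epiblast by 1.59 ± 0.32 (adjusted p = 0.00577), while diapaused ICM and ICM differed by 0.50 ± 0.28 (adjusted p = 0.295). The call against ICM was lost in 7 of 18 alternatives. It was lost with a pseudocount of 5, with no filter, with only these 2 groups fitted and with a minimum fold of 1.5. The others were the fits without ICM replicate 3 (-0.80, adjusted p = 0.0694), without epiblast replicate 1 (-0.93) and without epiblast replicate 2 (-1.23). The call between diapaused ICM and epiblast was lost without epiblast replicate 1 (1.44).

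Mcl1 and Bcl2l1 therefore moved in opposite directions between ICM and epiblast. The ratio of Mcl1 to Bcl2l1 was 2.82 ± 0.329 (SD, n = 3) in ICM, 3.85 ± 1.39 (SD, n = 3) in diapaused ICM and 40.2 and 13.9 in the 2 epiblast libraries. Mcl1 made up 73.5% of the summed level of the 3 anti-apoptotic members in ICM, 77.7% in diapaused ICM and 97.0% and 93.0% in the 2 epiblast libraries. Bcl2, the founding member of the family, added little to these sums. It was at 0.134, 0.00648 and 0.00203 adjusted TPM in ICM, 0.00156, 0.374 and 0.200 in diapaused ICM and 0.415 and 0.103 in epiblast, and was not tested.

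Bax and Bak1 encode the proteins that form the pores, and either can do so without the other in many cells. Bax was at 22.9, 17.7 and 20.4 adjusted TPM in ICM, 12.8, 25.2 and 14.5 in diapaused ICM and 12.7 and 9.02 in epiblast. Diapaused ICM spread around the ICM range, with 1 library above and 2 below it, and both epiblast libraries lay below all others. No Bax difference passed the test: epiblast minus ICM was -0.86 ± 0.32 (limma, adjusted p = 0.0695), diapaused ICM minus ICM -0.26 ± 0.28 (0.620) and diapaused ICM minus epiblast 0.60 ± 0.32 (0.171). Epiblast against ICM passed when diapaused replicate 2 was left out (adjusted p = 0.0363), when libraries were rescaled to a common total (0.0293 with all genes and 0.0412 without the 8 genes above 1% of any library) and when only these groups were fitted (0.0468).

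Bak1 had the largest difference of the 8 tested members in both comparisons with ICM. It was at 0.381, 0.0946 and 0.184 adjusted TPM in ICM, 3.68, 4.26 and 3.48 in diapaused ICM and 3.19 and 5.63 in epiblast. All 5 libraries of diapaused ICM and epiblast were above all 3 of ICM, and the diapaused libraries lay within the epiblast range. Bak1 rose in diapaused ICM by 1.98 ± 0.24 (limma, adjusted p = 0.00103, 95% interval 1.45 to 2.52), from a mean of 0.220 ± 0.146 (SD, n = 3) to 3.81 ± 0.405 (SD, n = 3), a ratio of 17.3. It rose in epiblast by 2.12 ± 0.26 (adjusted p = 6.79e-04), to 4.41 ± 1.73 (SD, n = 2), a ratio of 20.1 over ICM. The ratios rest on an ICM level near 0, and without ICM replicate 1 they were 27.3 and 31.6. The difference itself was 3.71 and 3.86 with a pseudocount of 0.1 and 0.75 and 0.84 with a pseudocount of 5. Diapaused ICM and epiblast differed by -0.14 ± 0.26 (adjusted p = 0.715, 95% interval -0.73 to 0.46).

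Bak1 passed the filter only through the diapaused and epiblast libraries. With every line of the file tested, its adjusted p was 0.0113 in diapaused ICM and 0.00565 in epiblast. Both calls held in each of the 17 alternatives that tested the gene, and a filter of 5 in 2 libraries left it out. Of the marker lists above, the primitive endoderm sum was highest in diapaused ICM and lowest in epiblast. The visceral endoderm sum was, like Bak1, lowest in ICM, but most of it was Rhox5. In diapaused ICM, Apoe of that list also rose over ICM, Hnf4a fell, and Ttr and Apob stayed at 0.196 or less. The part of either cell type in the Bak1 difference was not tested. Ggnbp1 overlaps Bak1 in RefSeq, and the use of strand is not given. It was at 0.331 to 0.755 in ICM, 0.372 to 1.57 in diapaused ICM and 0.450 and 0.761 in epiblast, and did not pass in diapaused ICM (0.43 ± 0.31, adjusted p = 0.425) or in epiblast (0.12 ± 0.34, 0.819).

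ICM stood apart in the makeup of the effector pair. Bak1 was 1.02% of the summed effector level in ICM, 18.7% in diapaused ICM and 29.2% in epiblast, and the libraries of diapaused ICM (14.5% to 22.4%) and epiblast (20.1% and 38.4%) overlapped. The sum of Bax and Bak1 was 20.6 ± 2.73 adjusted TPM (SD, n = 3), 21.3 ± 7.10 (SD, n = 3) and 15.3 ± 0.882 (SD, n = 2). Bax exceeded Bak1 in each library, by a mean ratio of 120 in ICM, 4.51 in diapaused ICM and 2.79 in epiblast.

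Bcl2l11 encodes BIM, which binds every anti-apoptotic member and can also engage BAX directly. It was at 2.83, 1.39 and 2.26 adjusted TPM in ICM, 2.45, 2.13 and 2.29 in diapaused ICM and 11.6 and 8.92 in epiblast. ICM and diapaused ICM overlapped, and both epiblast libraries were above all 6 others. Bcl2l11 rose in epiblast over ICM by 1.85 ± 0.26 (limma, adjusted p = 0.00112), a ratio of means of 4.75, and was lower in diapaused ICM than in epiblast (-1.77 ± 0.26, adjusted p = 0.00120). Both calls held in all 18 alternatives. Diapaused ICM and ICM differed by 0.08 ± 0.23 (adjusted p = 0.867, 95% interval -0.43 to 0.60), and the sign of this small difference turned under both rescalings and without ICM replicate 2. Acoxl, which overlaps Bcl2l11 in RefSeq, was at 0.350 or less in every library.

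Pmaip1 encodes NOXA, which binds MCL1 and marks it for breakdown. It was the most abundant BH3-only member in every library, at 9.72, 5.96 and 9.94 adjusted TPM in ICM, 7.04, 8.40 and 6.78 in diapaused ICM and 16.0 and 14.2 in epiblast. Epiblast lay above all others, and the diapaused libraries fell within the ICM range. Pmaip1 was lower in diapaused ICM than in epiblast (-0.94 ± 0.26, limma, adjusted p = 0.0233), and its difference between epiblast and ICM of 0.78 ± 0.26 just missed the threshold (adjusted p = 0.0503). The latter passed with a pseudocount of 5, with a filter of 5 in 2 libraries and with quantile normalization (lowest adjusted p 0.0249). The call between diapaused ICM and epiblast was lost in 5 of 18 alternatives, 1 of them the minimum fold of 1.5. The others were the fits without diapaused replicate 1 (-0.91, adjusted p = 0.0536), diapaused replicate 3 (-0.89, 0.0590), epiblast replicate 1 (-0.86) or epiblast replicate 2 (-1.02). Diapaused ICM and ICM differed by -0.16 ± 0.23 (adjusted p = 0.731).

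Bid is cut by caspase 8 and so links death receptors to the mitochondrion. It was at 0.449, 1.22 and 0.758 adjusted TPM in ICM, 0.320, 1.19 and 1.65 in diapaused ICM and 4.13 and 2.59 in epiblast. Epiblast again lay above all 6 other libraries, which overlapped each other. Bid rose in epiblast over ICM by 1.27 ± 0.36 (limma, adjusted p = 0.0279) and was lower in diapaused ICM than in epiblast (-1.12 ± 0.36, adjusted p = 0.0387), and diapaused ICM differed from ICM by 0.15 ± 0.32 (0.827). Both calls depended on single libraries. The rise over ICM was lost in 9 of 17 alternatives, among them the fits without ICM replicate 1 (1.12, adjusted p = 0.0789), ICM replicate 3 (1.26, 0.0634), epiblast replicate 1 (1.01, 0.184) or epiblast replicate 2 (1.52, 0.0631). The difference between diapaused ICM and epiblast was lost in 12 of 17, among them the fits without ICM replicate 3 (-1.12, 0.0540), diapaused replicates 1 (-0.83, 0.0860) or 2 (-1.20, 0.0568) and epiblast replicates 1 (-0.87, 0.222) or 2 (-1.38, 0.0755).

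Bbc3 encodes PUMA, a target of p53 that binds all anti-apoptotic members. It was at 0.548, 0.803 and 0.352 adjusted TPM in ICM, 1.64, 1.33 and 1.41 in diapaused ICM and 0.905 and 1.11 in epiblast. The 3 groups did not overlap, with diapaused ICM highest and ICM lowest. No ICM library reached 1, so Bbc3 passed the filter only through the diapaused libraries and epiblast replicate 2. None of its differences passed: diapaused ICM minus ICM was 0.66 ± 0.23 (limma, adjusted p = 0.0976, 95% interval 0.14 to 1.18), epiblast minus ICM 0.37 ± 0.26 (0.310) and diapaused ICM minus epiblast 0.29 ± 0.26 (0.399). Bik, a BH3-only gene of the endoplasmic reticulum, was at 0.0419 or less in every library and was not tested.

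The summed level of the 5 BH3-only members was 12.1 ± 2.35 adjusted TPM (SD, n = 3) in ICM, 12.2 ± 0.804 (SD, n = 3) in diapaused ICM and 29.8 ± 4.03 (SD, n = 2) in epiblast. Pmaip1 made up 70.0%, 60.6% and 50.9% of it, and Bcl2l11 17.6%, 18.9% and 34.4%. The anti-apoptotic sum was 21.6 ± 7.74 (SD, n = 3), 39.2 ± 7.72 (SD, n = 3) and 54.3 ± 26.5 (SD, n = 2). The ratio of the anti-apoptotic to the BH3-only sum was therefore highest in diapaused ICM, at 3.23 ± 0.742 (SD, n = 3) against 1.78 ± 0.464 (SD, n = 3) in ICM and 1.78 ± 0.649 (SD, n = 2) in epiblast. These sums are descriptions of RNA and were not tested. They cover the members only and leave out Bad, a BH3-only gene outside the 10 members. Bad was at 29.9, 9.56 and 2.65 in diapaused libraries 1, 2 and 3, where the 5 members summed to 11.4, 13.1 and 12.1. It was at 7.10, 7.64 and 8.71 in ICM and at 1.63 and 3.42 in epiblast. A sum with Bad need not keep the order of these ratios between groups.

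**Figure D2:**
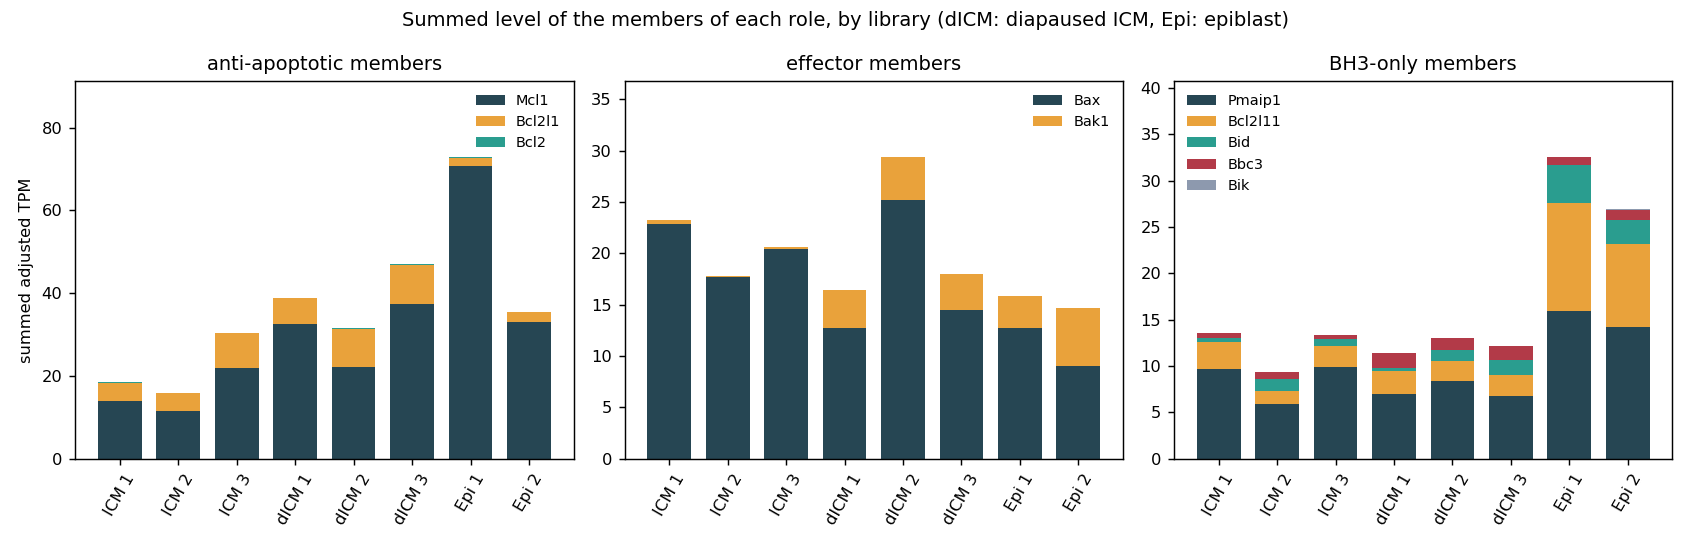
Summed adjusted TPM of the members of each role (y axis, from 0, a scale per panel) in each library (x axis), stacked by gene. Mcl1 fills 97.0% and 93.0% of the anti-apoptotic sum in the 2 epiblast libraries, Bak1 is visible in diapaused ICM and epiblast at 18.7% and 29.2% of the effector sum, and the BH3-only sum is highest in the 2 epiblast libraries.

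The order of the levels differed between the groups. In ICM it ran Bax, Mcl1, Pmaip1, Bcl2l1, Bcl2l11, Bid, Bbc3, Bak1, Bcl2, Bik, where Bax and Mcl1, Pmaip1 and Bcl2l1, Bid and Bbc3, Bbc3 and Bak1, and Bak1 and Bcl2 were neighbours whose libraries overlapped. Diapaused ICM had the order Mcl1, Bax, Bcl2l1, Pmaip1, Bak1, Bcl2l11, Bbc3, Bid, Bcl2, Bik, and its overlapping neighbours were Mcl1 and Bax, Bcl2l1 and Pmaip1, Bbc3 and Bid, Bid and Bcl2, and Bcl2 and Bik. Epiblast ran Mcl1, Pmaip1, Bax, Bcl2l11, Bak1, Bid, Bcl2l1, Bbc3, Bcl2, Bik, with overlap of Bax with Bcl2l11 and of Bak1 with Bid. Bak1 stood at percentile 3.58 of the tested genes in ICM, 50.8 in diapaused ICM and 52.3 in epiblast, and Bcl2l1 at 61.0, 66.4 and 31.1.

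Counted together, 1 of the 8 tested members (Bak1) rose and 0 fell in diapaused ICM against ICM, where 7.52% of all tested genes rose and 5.81% fell. The limma count at an unadjusted p under 0.05 was 3, and 3 of 8 had groups that did not overlap, against 30.7% of all genes. The median difference of the 8 was 0.32, beside 0.004 over all tested genes. In epiblast against ICM, 4 of 8 rose (Bak1, Bcl2l11, Mcl1 and Bid) and 1 fell (Bcl2l1), where 16.7% of all genes rose and 13.3% fell. All 8 had groups that did not overlap, a state that 59.0% of all genes shared, and their median was 1.03 beside 0.14. Between diapaused ICM and epiblast, 1 of 8 was higher in diapaused ICM (Bcl2l1) and 3 were lower (Bcl2l11, Pmaip1 and Bid), where 16.0% of genes were higher and 18.6% lower. Of the 8, 6 did not overlap, against 61.4% of all genes, and the median was -0.41 beside -0.11. Bak1, Bbc3 and Bid were at 1 or more in 4 or 5 of the 8 libraries, so the 8 that passed the filter do not stand for the whole family. Bak1 and Bbc3 reached 1 in no ICM library, so their place in the counts against ICM rests on the groups where they were high.

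**Figure D3:**
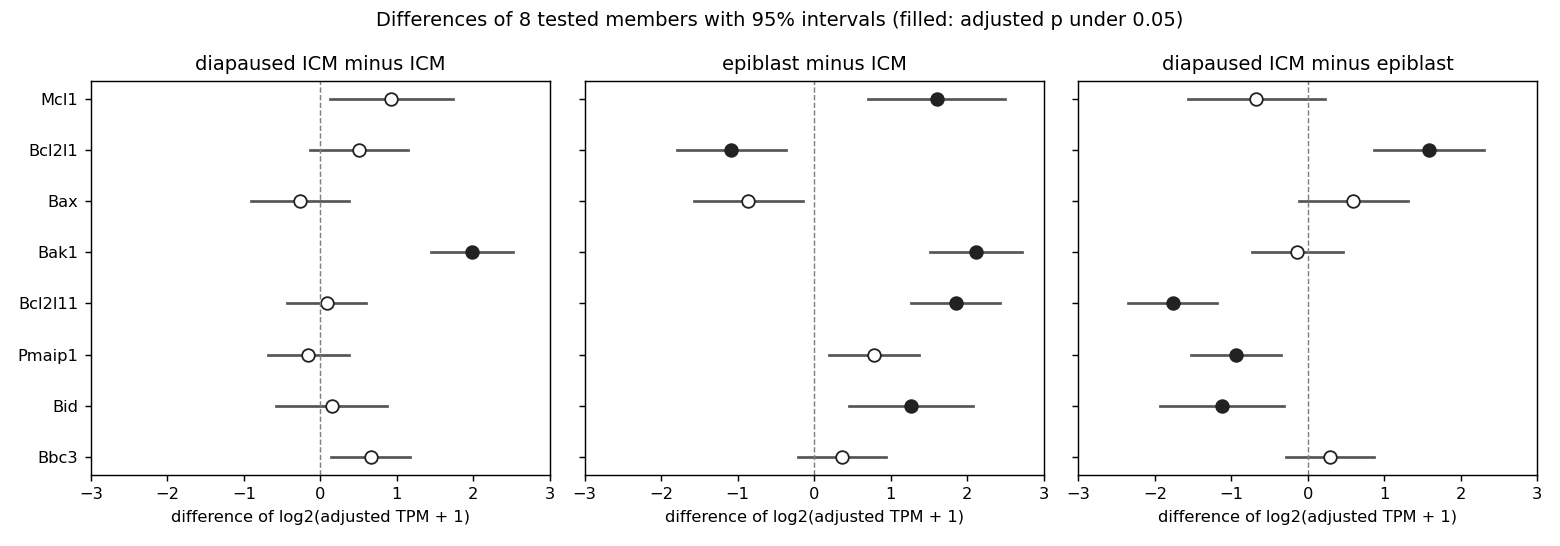
Difference of log2(adjusted TPM + 1) (x axis) for the 8 tested members (y axis) in each comparison, with bars for 95% intervals and filled points for an adjusted p under 0.05 in limma. Bak1 alone is filled in diapaused ICM against ICM, 5 members are filled in epiblast against ICM, and 4 between diapaused ICM and epiblast.

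The scaling of the libraries moved the counts over all genes. All genes called in diapaused ICM against ICM split into 1331 higher and 1029 lower, but into 864 and 1478 after rescaling to a common total and 857 and 1693 without the abundant genes. Epiblast against ICM went from 2963 and 2361 to 1544 and 2741 and to 1932 and 2590, and diapaused ICM against epiblast from 2830 and 3283 to 2511 and 2458 in the first of these rescalings. The median over all tested genes moved to -0.20 and -0.22 in diapaused ICM against ICM. Bak1 in that comparison was 1.89 and 1.85 under the same rescalings, and no called member changed sign.

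Other relatives of the family were taken from a list of 20 genes, 12 of them tested. Over all tested genes, 7.52% rose and 5.81% fell in diapaused ICM against ICM, and 16.7% and 13.3% in epiblast against ICM. In diapaused ICM against epiblast 16.0% were higher and 18.6% lower. The counts of this and the following lists stand against these shares. Bcl2l14, whose protein carries a BH2 and a BH3 domain, was at 7.68, 6.84 and 11.3 adjusted TPM in ICM and at 0.168 or less in all 5 other libraries. It fell by 3.16 ± 0.24 in diapaused ICM (limma, adjusted p = 1.02e-04) and by 3.20 ± 0.27 in epiblast (7.56e-05), and both calls held in all 18 alternatives. Bcl2l14 passed the filter only through the ICM libraries, where it was high. In diapaused ICM it was the only relative past the threshold, 1 of 12 tested. In epiblast Bnip3 and Bnip2 also rose. Bnip3, a gene of mitophagy and hypoxia, went from 3.25 ± 0.997 (SD, n = 3) to 22.1 ± 6.08 (SD, n = 2), by 2.45 ± 0.35 (adjusted p = 0.00141). Bnip2 differed by 1.44 ± 0.44 (0.0378), a call lost in 12 of 18 alternatives. Bnip3 (-2.81 ± 0.35, 5.86e-04), Bok (-0.91 ± 0.27, 0.0313) and Bnip3l (-0.83 ± 0.28, 0.0460) were lower in diapaused ICM than in epiblast, and the Bok and Bnip3l calls were lost in 6 of 17 and 10 of 18 alternatives, without either epiblast library among others. Bok passed the filter only through the epiblast libraries, where it was high.

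Downstream of the mitochondrion, 16 of 20 genes of the apoptosome, the caspases and the IAP proteins were tested. In diapaused ICM 0 rose and 3 fell, among them Casp6, which encodes an effector caspase, by 1.56 ± 0.40 (limma, adjusted p = 0.0324) and Aifm1, which encodes a mitochondrial flavoprotein, by 1.40 ± 0.32 (0.0210). These 2 calls were lost in 11 and 5 of 18 alternatives, each of them without ICM replicate 1 and without ICM replicate 3, with a highest adjusted p of 0.243 and 0.214. In epiblast against ICM, 2 rose and 4 fell, where 16.7% of all tested genes rose and 13.3% fell. Cycs, which encodes cytochrome c, rose by 0.85 ± 0.25 (0.0325) and Birc2 by 0.80 ± 0.23 (0.0286), while Birc6 fell by 1.35 ± 0.32 (0.0134), Xiap, an inhibitor of caspases, by 1.37 ± 0.35 (0.0192), Aifm1 by 1.08 ± 0.35 (0.0483) and Casp6 by 1.34 ± 0.44 (0.0487). All 6 were lost in at least 3 of 18 alternatives, Birc6 without either epiblast library (highest adjusted p 0.127), Xiap without ICM replicates 1 or 3 or epiblast replicate 2 (0.156), and the other 4 in 8 to 11. Apaf1, the core of the apoptosome, was higher in diapaused ICM than in epiblast (1.19 ± 0.26, 0.00833), as was Birc6 (1.54 ± 0.32, 0.00654), and Cycs was lower (-1.47 ± 0.25, 0.00274). The Apaf1 and Birc6 calls between these groups were each lost in 2 of 18 alternatives, among them without epiblast replicate 2 (highest adjusted p 0.121 and 0.0549). Casp9, which the apoptosome activates, did not pass in any comparison, with means of 3.67 ± 0.714 (SD, n = 3), 5.62 ± 0.923 (SD, n = 3) and 4.71 ± 2.27 (SD, n = 2).

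Among 15 tested genes of the p53 list, Trp53 itself passed in no comparison, at 24.4 ± 0.124 adjusted TPM (SD, n = 3) in ICM, 18.2 ± 8.75 (SD, n = 3) in diapaused ICM and 23.2 ± 5.95 (SD, n = 2) in epiblast. In diapaused ICM 2 rose, Btg2 by 2.04 ± 0.29 (limma, adjusted p = 0.00232) and Sesn2 by 1.33 ± 0.20 (0.00314), and Gtse1 fell by 1.12 ± 0.24 (0.0151). Cdkn1a, the cell cycle inhibitor p21, differed there by 1.14 ± 0.40 (0.103) and Mdm2, which directs p53 to breakdown, by 0.89 ± 0.37 (0.164). In epiblast Zmat3 (1.13 ± 0.22, 0.00635) and Aen (1.21 ± 0.28, 0.0123) rose, and Sesn1, Mdm4 and Mdm2 fell, Sesn1 by 1.83 ± 0.33 (0.00398), Mdm4 by 1.42 ± 0.39 (0.0248) and Mdm2 by 1.30 ± 0.42 (0.0447). Diapaused ICM against epiblast had 4 higher genes (Btg2, Sesn2, Mdm2 and Cdkn1a) and 2 lower (Aen and Zmat3). Outside diapaused ICM, Cdkn1a reached 1 only in ICM replicate 2 (2.26), so it passed the filter through the diapaused libraries, where it was high. Of all tested genes, 16.0% were higher there and 18.6% lower. The Btg2 calls held in all 18 alternatives, while the Mdm2 call against ICM was lost in 12, without any of 7 single libraries among others (highest adjusted p 0.283). In epiblast against ICM the Zmat3, Aen, Sesn1 and Mdm4 calls were lost in 3, 3, 1 and 6 of 18, each of them without epiblast replicate 1 (highest adjusted p 0.122, 0.155, 0.0560 and 0.171). Gtse1 in diapaused ICM was lost in 3, among them without ICM replicate 1 (0.292). Between diapaused ICM and epiblast, the Zmat3 call was lost in 12 of 18, Cdkn1a in 4 of 17, Aen in 2 and Mdm2 in 1, each of them without epiblast replicate 1.

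In diapaused ICM against ICM 7.52% of all tested genes rose and 5.81% fell. Of 10 tested transcription factors reported to act on BH3-only genes, 3 rose there and 0 fell. They were Atf3 (2.48 ± 0.27, limma, adjusted p = 6.62e-04), Ddit3 (2.39 ± 0.30, 0.00141) and Jun (2.22 ± 0.39, 0.00682). Atf3, at 0.162 or less in ICM and epiblast, passed the filter only through the diapaused libraries. Ddit3, which encodes the stress factor CHOP, was at 8.91, 8.01 and 15.6 adjusted TPM in ICM, 83.5, 47.7 and 51.3 in diapaused ICM and 2.13 and 2.10 in epiblast, with no overlap between groups. CHOP is reported to raise Bcl2l11 and Bbc3. In diapaused ICM against ICM, Bcl2l11 differed by 0.08 ± 0.23 (limma, adjusted p = 0.867). Bbc3 differed by 0.66 ± 0.23 (0.0976, 95% interval 0.14 to 1.18), with all diapaused libraries above all ICM libraries. The part of CHOP in either difference was not tested. In epiblast 2 factors rose, Atf4 by 1.65 ± 0.50 (0.0371) and Foxo1 by 0.92 ± 0.29 (0.0415), and 3 fell, Foxo3 by 1.60 ± 0.22 (0.00104), Ddit3 by 1.87 ± 0.34 (0.00438) and E2f1 by 1.17 ± 0.27 (0.0122). Foxo3 and Foxo1 encode factors reported to drive Bcl2l11. Diapaused ICM had 4 higher factors than epiblast (Ddit3, Atf3, Foxo3 and Jun) and 0 lower, where 16.0% of all tested genes were higher and 18.6% lower. The Atf4 and Foxo1 calls were lost in 8 and 11 of 18 alternatives, and the Ddit3 and Atf3 calls named here in 0.

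Genes that act on the turnover of the MCL1 and BIM proteins were tested for 16 of 17. Btrc, a subunit of a ubiquitin ligase, fell in diapaused ICM by 2.08 ± 0.26 (limma, adjusted p = 0.00123) and in epiblast by 2.40 ± 0.29 (5.56e-04), from 13.9 ± 2.83 adjusted TPM (SD, n = 3) to 2.59 ± 1.12 (SD, n = 3) and 1.80 ± 0.0299 (SD, n = 2). The other members that fell in diapaused ICM were Ywhaq (-1.06 ± 0.22, 0.0155) and Ywhaz (-0.97 ± 0.21, 0.0171), which encode 14-3-3 proteins, and 0 rose. Epiblast had 4 that rose: the kinase gene Mapk8 (2.21 ± 0.27, 6.38e-04), Dusp6 (2.08 ± 0.27, 8.82e-04), a phosphatase induced by ERK signalling, Ywhaq (1.75 ± 0.25, 0.00135) and Dynll1 (0.96 ± 0.30, 0.0416). Between diapaused ICM and epiblast 5 were lower, among them Ywhaq, Dusp6, Mapk8 and Dynll1, and 0 higher. Of all tested genes, 18.6% were lower in diapaused ICM and 16.0% higher. The Btrc calls and the rises of Mapk8, Dusp6 and Ywhaq held in all 18 alternatives, and that of Dynll1 was lost in 12, without either epiblast library among others (highest adjusted p 0.443).

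The death receptor list had 8 of 13 genes tested. Of all tested genes, 7.52% rose and 5.81% fell in diapaused ICM against ICM, and 16.7% and 13.3% in epiblast against ICM. Cyld rose in diapaused ICM by 1.13 ± 0.32 (limma, adjusted p = 0.0487), a call lost in 15 of 17 alternatives, among them the removal of any single library, and 0 fell. In epiblast Tnfrsf10b, a TRAIL receptor, fell by 1.06 ± 0.27 (0.0184) and Tradd by 1.59 ± 0.49 (0.0383), calls lost in 5 and 8 of 17 alternatives, and Tnfrsf10b was higher in diapaused ICM than in epiblast, at 3.04 ± 0.792 (SD, n = 3) against 0.422 ± 0.227 (SD, n = 2, adjusted p = 0.00357). Of 13 tested genes of the mitochondrial outer membrane and its dynamics, Mfn2 fell in diapaused ICM by 0.91 ± 0.25 (0.0447), a call lost in 10 of 17 alternatives, without either epiblast library among others. Mfn1, its partner in mitochondrial fusion, fell in epiblast by 2.36 ± 0.24 (2.08e-04), from 28.3 ± 3.16 adjusted TPM (SD, n = 3) to 4.70 ± 0.076 (SD, n = 2). Mfn1 (1.70 ± 0.24, 9.81e-04) and Dnm1l (0.87 ± 0.27, 0.0345) were higher in diapaused ICM than in epiblast.

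**Figure D4:**
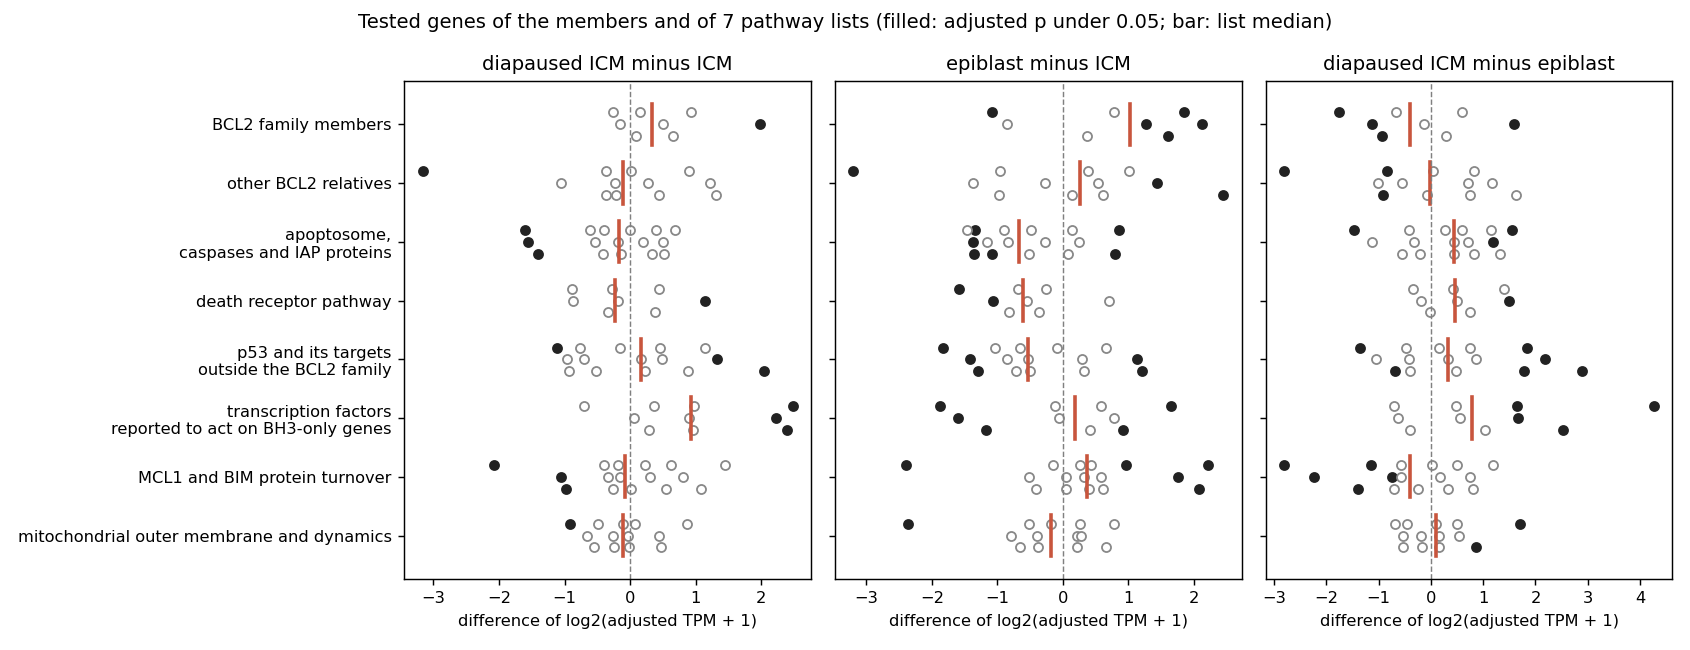
Difference of log2(adjusted TPM + 1) (x axis) of every tested gene of the family and of 7 related lists (y axis) in each comparison, with filled points for an adjusted p under 0.05 in limma and a bar for the list median. The member median is 0.32, 1.03 and -0.41 in the 3 comparisons, and a single relative, Bcl2l14, lies below -3 in both comparisons with ICM.

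The genes whose pattern over the 8 libraries was most like that of a member were sought among 5580 genes with a mean of at least 5. For Bak1 they were Cyb5b (Pearson r = 0.991) and Fxyd6 (0.979), and for Bcl2l11 Nol8 (0.991) and Odc1 (0.989). Mcl1 was nearest to Ccnt1 (0.990) and Spint2 (0.981), and Bcl2l1 to Rab11fip1 (0.986) and Tmem222 (0.967). Pmaip1 was nearest to Ppip5k2 (0.988) and Ttc33 (0.978), Bid to Atf7ip (0.963) and Psme1 (0.963), Bbc3 to Mut (0.973) and Smyd2 (0.968), and Bax to Rfk (0.954) and Bcap31 (0.949). These are the highest of 5580 values per member over 8 libraries in 3 groups, and the points share the differences between groups and the library scaling.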

How the data were processed

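RNA of 8 libraries (3 ICM, 3 diapaused ICM, 2 epiblast), grouped by their labels, was analysed from the deposited table of 38924 genes. The authors deposited a signal for each gene, headed adjusted TPM in the table. No source used here describes the adjustment. Column totals differ, so the unit was taken as a signal in place of the TPM assumed beforehand, and the planned test on a log scale was kept. The submitters' processing notes list Bowtie 0.12.5, DESeq and build mm9 and give no roles. Quantification, annotation and strand use are likewise not stated there. The file has a line per gene, so isoforms are not separated.

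Genes at 1 or more in at least 2 libraries (17698) were tested on log2(value + 1) with limma 3.58.1 in R 4.3.3, all 8 libraries in a fit with a mean per group and a trended prior (5 residual and 3.97 prior degrees of freedom), two-sided, with Benjamini-Hochberg adjustment over all tested genes. Repeated symbols took the line of highest mean. The procedure was run on simulated normal values with genes shifted in diapaused ICM only, none of them at a low ICM level. That run does not cover differences in epiblast or genes as low as Bak1, Bbc3 and Bid in ICM. The p-values measure the spread between pools, which the labels call biological replicates.

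Members and lists were chosen with earlier results of these data known. All members are named, and from each pathway list up to 2 genes per direction and comparison with the smallest adjusted p, 8 preset genes and every gene of a count of 5 or fewer, except 2 list genes that are counted but not reported here by name. For each tested member the 2 most correlated genes of mean 5 or more are named, without predicted genes and small RNAs. Tigar, Pidd1 and Hbb-b1 of the lists had no line of that symbol. Promoters are RefSeq, matched by symbol. Overlapping genes are those of RefSeq on GRCm38. Alternatives changed the pseudocount, filter, scaling, samples fitted, replicate block and minimum fold, and left out each library.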

Additional observations from a re-analysis of the deposited data

How the results depend on the processing

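Of the tests of single members under the alternatives, 373 kept their direction and side of the threshold, 37 lost it, 7 gained it and 6 turned sign, all 6 in differences that did not pass. The turned signs were Bcl2l11 in diapaused ICM minus ICM (-0.13 without the abundant genes, -0.10 rescaled to a common total, -0.10 to 0.23 when a library was left out), Bid in the same comparison (-0.0042 without ICM replicate 1, -0.068 without diapaused replicate 3, the lowest, and 0.43 without diapaused replicate 1, the highest) and Bak1 in diapaused ICM minus epiblast (-0.47 to 0.20 when a library was left out, the latter without epiblast replicate 2). The number of members past the threshold in diapaused ICM against ICM was 1 in the main analysis and 0 with a filter of 5, which left Bak1 untested. In epiblast against ICM it was 5, but 2 with no filter, 2 with a minimum fold of 1.5 and 2 to 6 when a library was left out (2 without epiblast replicate 1, 3 without epiblast replicate 2 or ICM replicate 3, 6 without diapaused replicate 2). Between diapaused ICM and epiblast it was 4, but 2 with the minimum fold and 1 to 4 when a library was left out (1 without epiblast replicate 1, 2 without epiblast replicate 2 or diapaused replicate 1). Without an epiblast library the other stands alone and is assumed to vary like the other groups. Over all genes, 2360, 5324 and 6113 were called in the 3 comparisons, 640, 1845 and 2243 with the minimum fold, 1278 with no filter in diapaused ICM against ICM, and 1402 to 2141, 2008 to 5205 and 2698 to 6315 when a library was left out.

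Deviations from the group mean correlated at 0.017, 0.103 and 0.131 for ICM and diapaused ICM libraries of the same replicate number. Those of different numbers correlated at -0.148 to 0.033. The deviations of the 2 epiblast libraries mirror each other, so their pairs cannot decide. Whether the numbers pair the samples was not settled, and the main fit did not pair them. With the replicate block, 1, 5 and 3 members and 2004, 4475 and 5314 genes were called, and the member call lost was Bid between diapaused ICM and epiblast (adjusted p = 0.0521). Not every library correlated best with its own number. Limits are the 2 epiblast libraries, the unknown depth and adjustment, and RNA that was amplified from pooled embryos. Levels near 0, such as those of Bcl2, Bik and Bak1 in ICM, carry an error that cannot be computed without counts.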

Other observations

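Some relatives of the family varied widely between the diapaused libraries, and the genes named here were chosen after their values were seen. Bad, a BH3-only gene under growth factor control, was at 29.9, 9.56 and 2.65 adjusted TPM in diapaused ICM replicates 1, 2 and 3, at 7.10, 7.64 and 8.71 in ICM and at 1.63 and 3.42 in epiblast. Its difference between diapaused ICM and ICM was 0.27 ± 0.64 (limma, adjusted p = 0.841). Bcl2l13, a receptor for mitophagy, was at 11.1, 2.97 and 3.58 in diapaused ICM, at 1.45, 2.02 and 1.38 in ICM and at 2.72 and 2.11 in epiblast, a difference of 1.22 ± 0.39 between diapaused ICM and ICM (adjusted p = 0.0760). Bcl2l12 was at 1.00, 7.52 and 0.557 in diapaused ICM and at 0.524 or less in the other 5 libraries (1.31 ± 0.57, 0.176). Hrk, a BH3-only gene known from neurons, was at 0.478, 1.17 and 0.678 in diapaused ICM, at 0.0511 or less in ICM and at 0.277 and 0.370 in epiblast, with no overlap between groups. It was below the filter and was not tested.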
